A study of Homo sapiens with 4 samples.

Results

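BMI1 and 8 further genes of Polycomb repressive complex 1 (PRC1), namely PCGF1, PCGF2, PCGF3, PCGF5, PCGF6, RING1, RNF2 and CBX8, were examined for RNA polymerase II (Pol II) peaks. They are 9 of 20033 protein-coding genes. They were taken as members of a gene family, a choice made with earlier results of these data known. Every peak that touched a gene or the 2 kb on either side of it was recorded with its position, its width and the rank of its score within its own list. Pol II chromatin immunoprecipitation and sequencing was done in the established ovarian cancer cell line SK-OV-3, in cells that carried a stable lentiviral short hairpin against RRN3 (shRRN3) or against LacZ (shLacZ, the control). RRN3 is an initiation factor of RNA polymerase I, and the study asked how silencing it changes Pol II along genes, starting from transcripts that read through from COMMD3 into BMI1. Each hairpin had 1 Pol II library, represented by 1 peak list, and 1 input library, which was not analysed here. Which of the RRN3 hairpins was used, and whether the line was 1 clone or a pool, are not given in the sources used here, and a peak list does not measure the RRN3 knockdown itself.

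PRC1 is a ubiquitin ligase that marks histone H2A at lysine K119 and helps to keep developmental genes silent. Each complex is built on a catalytic RING1 or RNF2 subunit joined to a single PCGF protein, and the PCGF protein sets the kind of complex. BMI1 (also PCGF4) and PCGF2 form the canonical complexes, in which a CBX protein such as CBX8 reads the histone H3 methylation laid down by Polycomb repressive complex 2 (PRC2), whereas PCGF1, PCGF3, PCGF5 and PCGF6 form variant complexes. BMI1 is also known as an oncogene that represses the CDKN2A locus and supports self-renewal. It lies directly downstream of COMMD3 on the same strand, and the annotation holds a joined gene, COMMD3-BMI1.

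Pol II was listed at 3 of the 9 genes in at least 1 list, where 7668 of all 20033 protein-coding genes had such a peak. BMI1 had a peak just before its start in shLacZ and a different, weak peak inside the gene in shRRN3. PCGF1 had a peak over its start and RNF2 a peak in its first intron, both in shRRN3 alone. The other 6 genes had no peak in either list, as was the case for 12365 of the 20033 genes. The sequences under these peaks are shown first, because they differ sharply in base composition, with each CpG in capitals. The first is the last 300 bases of the BMI1 peak of shLacZ, chr10:22320782-22321081 on the plus strand of GRCh38. The second is the 250 bases before the PCGF1 start that lie within its shRRN3 peak, chr2:74507696-74507945 on the minus strand. The third is the whole RNF2 peak of shRRN3, chr1:185049839-185050060 on the plus strand.
BMI1 upstream peak: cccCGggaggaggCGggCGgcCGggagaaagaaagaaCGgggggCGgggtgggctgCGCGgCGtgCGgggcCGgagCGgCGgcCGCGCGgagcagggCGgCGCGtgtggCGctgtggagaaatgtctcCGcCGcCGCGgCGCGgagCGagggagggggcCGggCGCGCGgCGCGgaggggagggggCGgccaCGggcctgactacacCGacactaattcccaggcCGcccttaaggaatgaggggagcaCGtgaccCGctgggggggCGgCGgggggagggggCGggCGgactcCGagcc
PCGF1 upstream bases: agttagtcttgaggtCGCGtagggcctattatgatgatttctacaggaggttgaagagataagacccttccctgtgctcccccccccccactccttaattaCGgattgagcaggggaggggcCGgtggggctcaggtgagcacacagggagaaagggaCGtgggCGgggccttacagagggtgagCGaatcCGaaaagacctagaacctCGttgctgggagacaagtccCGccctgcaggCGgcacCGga
RNF2 intron 1 peak: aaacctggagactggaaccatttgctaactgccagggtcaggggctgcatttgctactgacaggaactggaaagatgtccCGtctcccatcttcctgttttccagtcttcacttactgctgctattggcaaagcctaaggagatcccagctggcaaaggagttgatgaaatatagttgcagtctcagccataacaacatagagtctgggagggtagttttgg
The printed stretches held 44, 12 and 1 CpG, respectively, and their GC content was 78.7%, 58.8% and 48.2%. Measured over the 200 bases around each peak midpoint, the BMI1 peak of shLacZ had a GC content of 78.0%, higher than 97.4% of the peaks of its list, whose median was 48.5%. The PCGF1 peak had 64.0%, above 78.9% of the shRRN3 peaks, and the RNF2 peak had 48.0%, at the shRRN3 median of 48.0%. The BMI1 peak of shRRN3 stood at the other end, with 28.5%, a value that only 1.20% of shRRN3 peaks were below.

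The lists differ greatly in length, and every comparison has to be read against that. In shLacZ, 4014 peaks were listed, with a median width of 304 bp. In shRRN3 there were 14363, and their median width was 432 bp. Depth is unknown from these lists, and there is no replicate, so no difference between the hairpins could be set against a replicate spread and no p-value was computed. A gene without a peak is one at which Pol II was not detected by these calls, which is not a measurement of absence. As a check of the cell type, PAX8, a Mullerian transcription factor, had a start peak in both lists, and KRT8, KRT18 and EPCAM, which mark epithelial cells, had one in shRRN3, with KRT8 and KRT18 sharing a peak. In all, 1 of 9 epithelial and Mullerian markers had a start peak in shLacZ and 4 of 9 in shRRN3. Of 6 blood and endothelial markers, 0 had a start peak in either list and 1 had a peak in the gene or within 2 kb in shRRN3. The shares of all protein-coding genes with a start peak were 7.56% and 23.7%, so lists this short say little about the cell type.

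Counted over the 9 genes, 1 had a peak in the gene or within 2 kb in shLacZ, or 11.1% (exact 95% interval 0.281% to 48.2%), where 13.4% of all protein-coding genes had one. In shRRN3 the count was 3 of 9, or 33.3% (7.49% to 70.1%), where 36.9% of all protein-coding genes had one. A start peak, defined as a peak with its midpoint within 1 kb of the annotated gene start, was found at 1 of 9 in each list, beside 7.56% of all protein-coding genes in shLacZ and 23.7% in shRRN3. These intervals cover counting error only, and all 4 of the genome-wide shares lie within them, so at this number of genes the family could not be told from the genome in either list. No gene of the 9 had a start peak in both lists and 7 had one in neither, where 1284 of the 20033 genes had one in both and 15049 in neither.

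**Figure D1:**
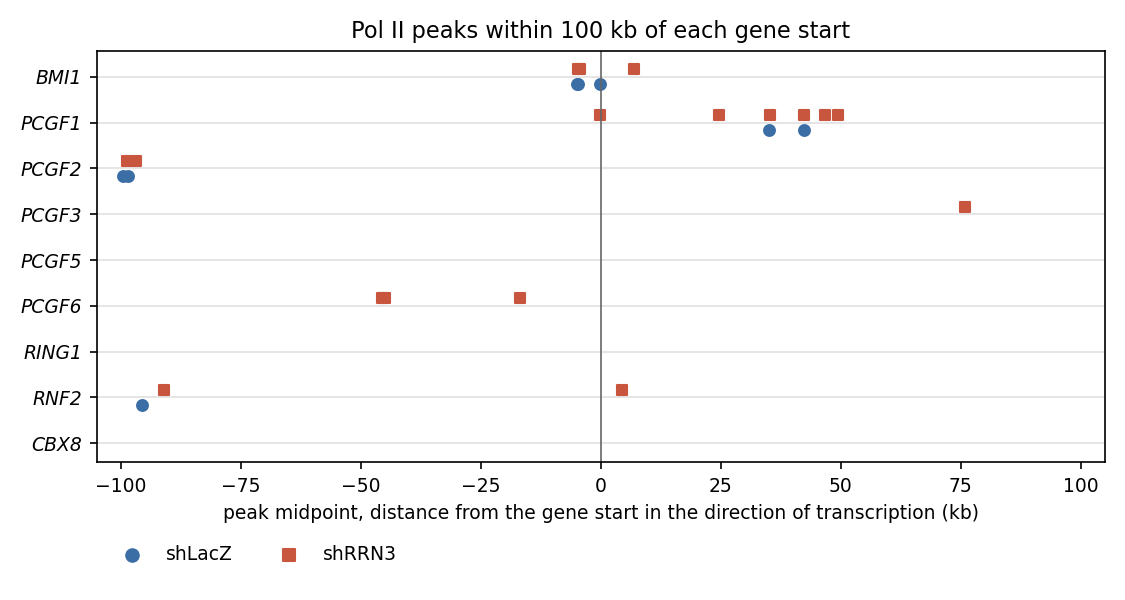
Pol II peaks within 100 kb of the start of each of the 9 genes, plotted by the distance of the peak midpoint from the gene start in kb, with shRRN3 peaks as squares above each line and shLacZ peaks as circles below it. BMI1 and PCGF1 have a peak at 0, in shLacZ and in shRRN3 respectively, and the lines of PCGF5, RING1 and CBX8 are empty.

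BMI1 (ENSG00000168283.14) spans 22321099 to 22331484 on the plus strand of chromosome 10, 10386 bp in 10 exons. The shLacZ peak covered chr10:22320737-22321081, a width of 345 bp, running from -362 bp to -18 bp relative to the annotated start. Its score of 131.29 ranked 489 of 4014, at percentile 87.8 of the list, the highest percentile among the peaks of the 9 genes. It lay outside the BMI1 span but inside the span of COMMD3-BMI1, in the 792 bp gap that separates the COMMD3 end from the BMI1 start, and it filled 43.6% of that gap. The peak began 431 bp past the COMMD3 end, so that it sat towards the BMI1 side of the gap.

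Most Pol II start peaks lie a little inside the gene, and the BMI1 peak did not. Over the 1325 shLacZ start peaks, the midpoint had a median position of 48 bp after the start and quartiles of -70 bp and 170 bp. The BMI1 midpoint was at -190 bp, and 12.0% of the start peaks were further upstream. Its width was below the start-peak median of 477 bp, with 22.8% narrower, whereas its score was above that of 89.7% of the start peaks. It thus combined a high score with a position set off to the upstream side.

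The shRRN3 list had no peak over this position, and its nearest was 3735 bp away, towards COMMD3. This was uncommon among shLacZ start peaks that scored at least as high, a cut set by the BMI1 peak itself. Start peaks without an overlap also lay just below that cut, where no share was computed. Of the 136 shLacZ start peaks that scored at least as high as that of BMI1, 2 were without an overlapping shRRN3 peak, or 1.47%, and BMI1 was itself one of them. The other was at ATF7IP, a partner of the histone methyltransferase SETDB1, with a score of 144.95 and rank 408, a gene named here after its values were seen. Setting all peaks to a width of 500 bp also gave no overlap here, but at a distance of 3735 bp it could not have. Since the percentage comes from 1 library for each hairpin, it describes these lists and not the effect of the hairpin.

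**Figure D2:**
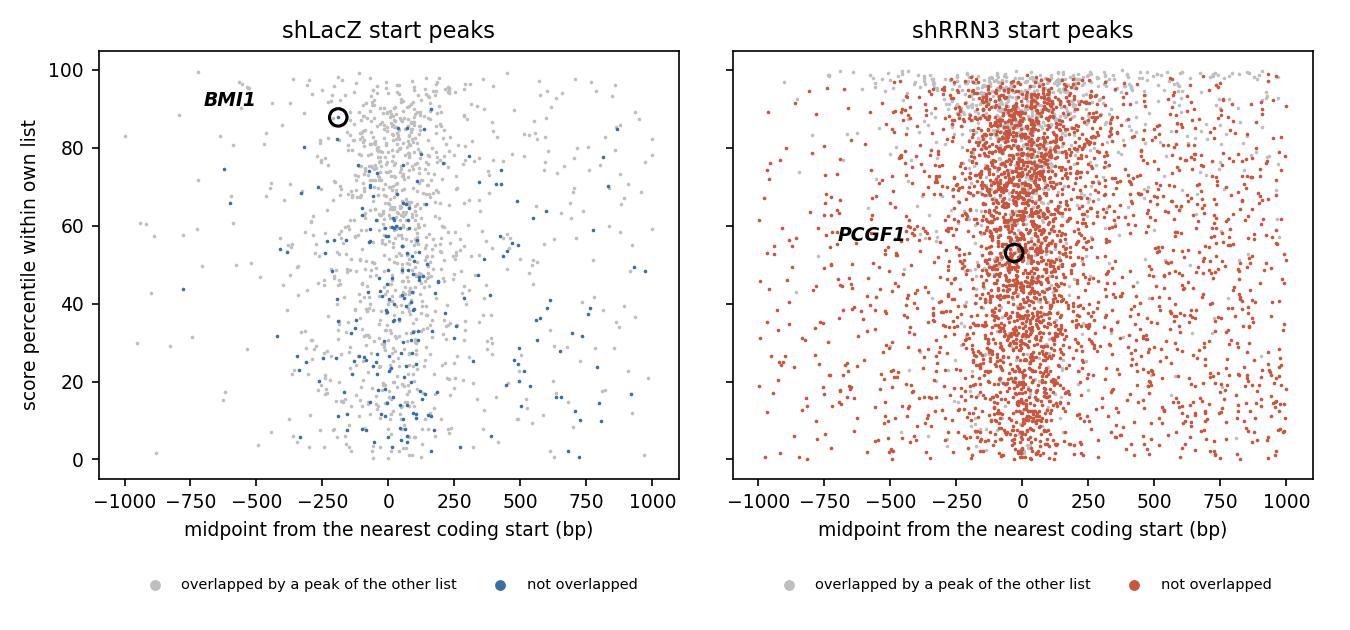
Each point is a start peak, placed by the distance of its midpoint from the nearest protein-coding start in bp and by its score percentile within its own list, for shLacZ (left) and shRRN3 (right). Coloured points have no overlapping peak in the other list. The ringed BMI1 peak sits at -190 bp and percentile 87.8 among mostly overlapped grey points, and the ringed PCGF1 peak at -31 bp and percentile 53.0 among mostly coloured ones.

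Inside BMI1, shRRN3 listed a peak at chr10:22328020-22328238, a width of 219 bp, whose midpoint lay 7030 bp after the start in intron 6. It covered 85 bp of exons 6 and 7. The peak was weak, with a score of 54.55 at rank 12160 of 14363, percentile 15.3, and its width was at percentile 4.69. The nearest shLacZ peak was 6939 bp away, the one before the start. Among the 1436 shRRN3 peaks within 5 percentiles of it in score, 1358 had no overlapping shLacZ peak, or 94.6%, so its absence from the shLacZ list is shared by nearly all peaks of that strength. The annotation has further BMI1 transcript starts in this stretch, and when a start of any transcript was allowed, the peak counted as a start peak and the shRRN3 count went from 1 to 2 of the 9 genes. The share of all protein-coding genes under that wider rule was not computed.

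From 2 kb before COMMD3 to 2 kb past BMI1, each list held 3 peaks, together covering 689 bp (shLacZ) and 763 bp (shRRN3). The COMMD3 start was the shared feature. COMMD3, whose protein belongs to a family that acts in endosomal sorting, had shLacZ peaks at -189 bp and 74 bp from its start, ranking 2167 and 2138, and shRRN3 peaks at 55 bp and 487 bp, ranking 6660 and 11515. In percentiles these were 46.0 and 46.8 in shLacZ, and 53.6 and 19.8 in shRRN3, so the peak before BMI1 outranked its upstream neighbours in shLacZ. No peak of either list lay in the stretch between the COMMD3 start region and the gap.

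**Figure D3:**
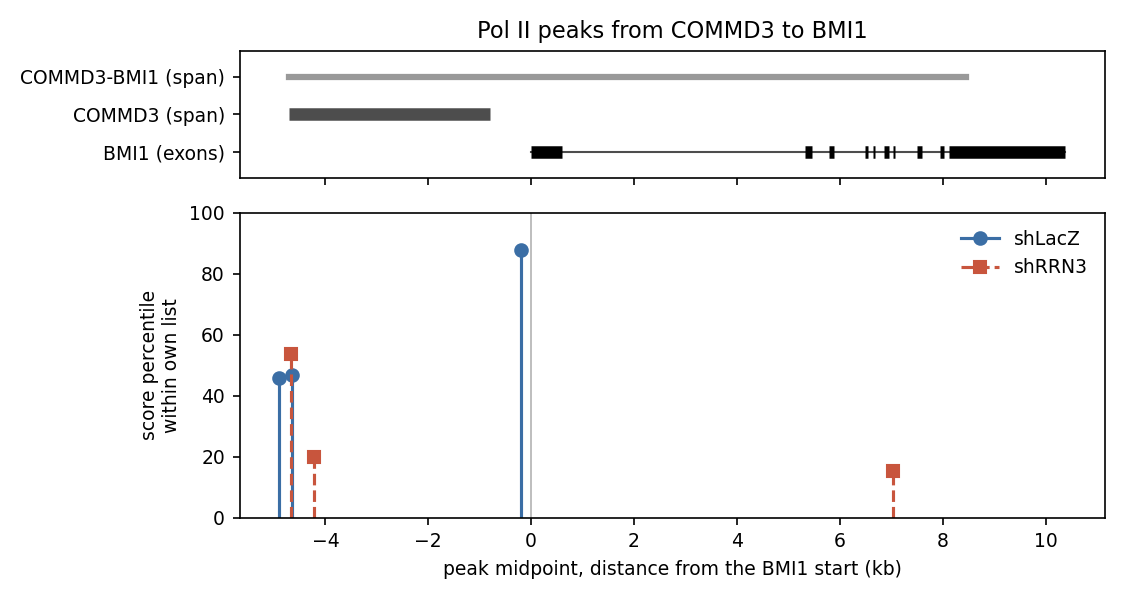
Map of COMMD3, BMI1 and COMMD3-BMI1 above the Pol II peaks of each list, with distance from the BMI1 start in kb on the x axis and the score percentile of each peak within its own list on the y axis. The shLacZ peak at the BMI1 start stands at percentile 87.8 with no shRRN3 counterpart, and the shRRN3 peak in the gene stands at 15.3.

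The gap itself was examined for the signal that ends COMMD3. In the last COMMD3 exon of 368 bp, the hexamer AATAAA, the common polyadenylation signal, occurred 1 time, starting 26 bases before the annotated end, and ATTAAA occurred 0 times. The 30 bases around it, chr10:22320268-22320297 on the plus strand, are shown with the hexamer in capitals. They stop shortly before the annotated COMMD3 end at 22320306.
COMMD3 end: tattacaccctgAATAAAtaaggtgttgtt
Past that end, the gap changed character. It had a GC content of 73.5% and 111 CpG, against 39.4% and 9 in the last COMMD3 exon, with 0 matches to AATAAA and 1 to ATTAAA, 100 bases past the COMMD3 end and before the shLacZ peak. Only the plus strand was searched, and a match is a description of the letters and not a mapped cleavage site. The gap sequence with its neighbouring exons was also used by the study in a fluorescent readthrough reporter. The labels of these libraries name SK-OV-3 cells and no reporter, and whether reporter copies were present was not tested.

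The genes whose peaks were most like that of BMI1 were sought by the distance between the start-peak score percentiles of the lists, counting a missing start peak as 0. The nearest were NXF1, an mRNA export factor (distance 1.35 percentile points), ASCC1, a subunit of a transcription coactivator complex (1.77), ATF7IP (2.02), and DNAJB9, a chaperone of the endoplasmic reticulum, and PNPLA8, a phospholipase, which share 1 peak (2.82). This likeness rests on 1 library per hairpin. It also joins unlike cases, because the shLacZ peaks at NXF1 and ASCC1, with midpoints 933 bp and 939 bp after the start, were overlapped by shRRN3 peaks that fell outside the start window. Those of ATF7IP and of the DNAJB9 and PNPLA8 pair were not overlapped.

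PCGF1 (ENSG00000115289.14), the PCGF protein of the variant complex that KDM2B brings to CpG islands, spans 74505043 to 74507695 on the minus strand of chromosome 2. At 2653 bp it is the shortest of the 9 genes. The shRRN3 peak covered chr2:74507466-74507986, 521 bp, from -291 bp to 229 bp relative to the start, and took in the whole first exon of 120 bp. Its score of 77.08 ranked 6746 of 14363, percentile 53.0, in the middle of the list. The shape was ordinary as well. The midpoint at -31 bp had 37.7% of the 4371 shRRN3 start peaks upstream of it, where the quartiles were -102 bp and 197 bp and the median 25 bp. The width was above that of 36.7% of them and the score above that of 41.6%.

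The shLacZ list had no peak at PCGF1, and its nearest lay 34594 bp away. This pattern was common. Of the 2554 shRRN3 start peaks that scored at least as high as that of PCGF1, 1672 were without an overlapping shLacZ peak, or 65.5%. PCGF1 lies among other genes with Pol II, with 2 shLacZ and 6 shRRN3 peaks within 100 kb of its start, its own peak among the 6. The nearest shLacZ peak was at MRPL53, a mitochondrial ribosomal protein gene, 32.2 kb from the gene. At these score cuts, a start peak seen in shRRN3 alone was thus the usual case, and one of high rank seen in shLacZ alone was not. The shares, 65.5% here and 1.47% for BMI1, used unlike cuts, and shRRN3 had 14363 peaks against 4014 in shLacZ. They therefore do not set the genes themselves apart.

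RNF2 (ENSG00000121481.11), which encodes the catalytic subunit RING1B, spans 185045526 to 185102603 on the plus strand of chromosome 1. Its shRRN3 peak was 222 bp wide, narrower than most, at width percentile 5.33, and lay 4423 bp after the start in intron 1, a stretch of 41902 bp, with 0 bp of exon. The score of 50.8 ranked 13889 of 14363, so that 392 peaks of the list scored lower. The nearest shLacZ peak was 99779 bp away. Of the 1153 shRRN3 peaks within 5 percentiles of it in score, 1105 had no overlapping shLacZ peak, or 95.8%. The RNF2 start itself, a CpG-rich promoter, had no start peak in either list.

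The remaining 6 genes had no peak, but the distance to the nearest one separated them. PCGF3 (chromosome 4, 705748 to 770089) and PCGF6 (chromosome 10, 103302796 to 103351144) were close to Pol II in shRRN3. The nearest shRRN3 peak was 11.3 kb from PCGF3, and the nearest to PCGF6 was 16.6 kb away, at the start of TAF5, a subunit of the general transcription factor TFIID. In shLacZ the distances were 320 kb for PCGF3 and 559 kb for PCGF6. PCGF5 (chromosome 10, 91163012 to 91284337), the longest of the genes at 121326 bp, lay 639 kb from the nearest shLacZ peak, at BTAF1, and 125 kb from the nearest shRRN3 peak, at HECTD2. The last, CBX8 (chromosome 17, 79792132 to 79801683) lay 1230 kb from the nearest shLacZ peak, at BAIAP2, and 234 kb from the nearest shRRN3 peak, at the starts of TBC1D16 and CCDC40. For all 4 genes the nearest shRRN3 peak was closer than the nearest shLacZ peak.

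PCGF2 (chromosome 17, 38733898 to 38749817) and RING1 (chromosome 6, 33208500 to 33212722) differed from these, because the distances changed little with the list. The nearest peaks to PCGF2 were 98.2 kb away in shLacZ and 96.3 kb in shRRN3. For RING1 they were 576 kb away in shLacZ, at LEMD2, and 499 kb in shRRN3, at UQCC2. The interval around the RING1 start with no peak of either list ran from 28383764 to 33711290, 5.33 Mb, and held 187 protein-coding starts, among them 19 HLA genes and PHF1, a PRC2 subunit. That was the largest number of starts among the 5185 peakless intervals that hold any. The interval around PCGF2 ran from 35662173 to 38846152, 3.18 Mb, with 58 starts including EPOP, another PRC2 subunit, and ranked 3 with a tie. Elsewhere on chromosome 6, 13.8% of 864 protein-coding genes had a start peak in shLacZ and 34.6% in shRRN3.

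**Figure D4:**
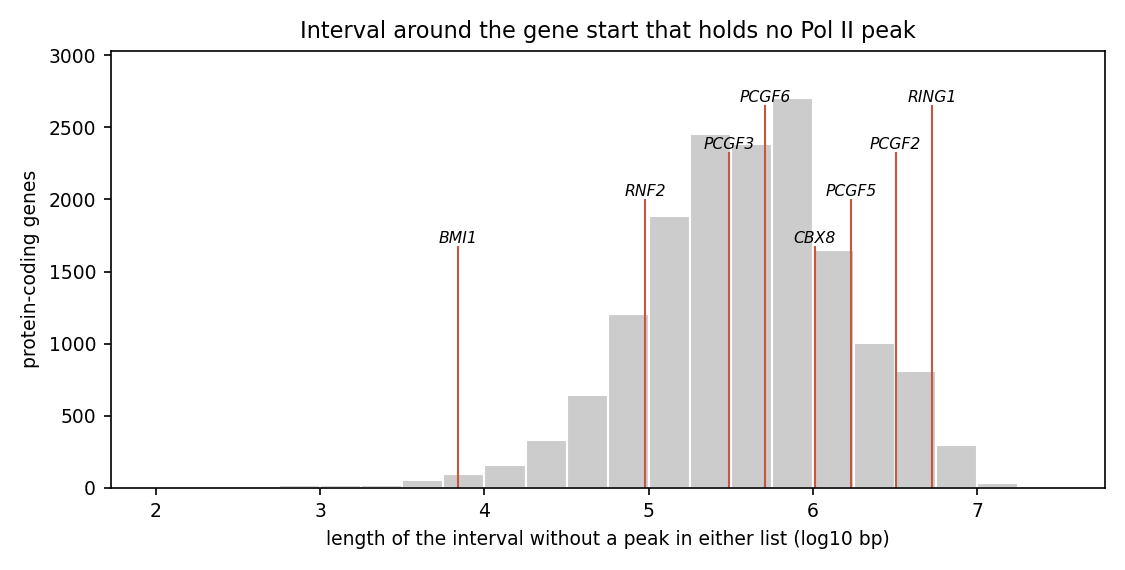
Number of protein-coding genes by the length of the interval around their start that holds no peak of either list, on a log10 scale in bp, for genes whose start is outside a peak. Lines mark 8 of the 9 genes at their own interval, from 6.94 kb at BMI1 to 5.33 Mb at RING1. The start of PCGF1 is inside a peak and has no line.

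Copies of these starts in the reference were counted, because 94 shLacZ and 41 shRRN3 peaks lay on sequences other than the primary chromosomes. For each protein-coding start, 21 words of 32 bases spaced 100 bp apart were looked up in the 455 sequences of the reference, 261 of them alternate sequences. All 21 words of RING1 and all 21 of PCGF2 also occurred in an alternate sequence, with a median of 5 and 1 further copies. PCGF6 had 1 such word and the other 6 genes had 0. The same held for the neighbourhood, with 180 of 187 starts in the RING1 interval and 55 of 58 in the PCGF2 interval having at least 50% of their words in an alternate sequence, compared with 835 of all 20033 starts, or 4.17%. By contrast, 0 of the 5 starts around PCGF5 and 0 of the 7 around CBX8 did.

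Genes with such copies were almost without peaks genome-wide. Of the 835, 0 had a start peak in shLacZ and 2 had one in shRRN3, or 0.240%, where the other 19198 starts had 7.89% and 24.7%. A missing peak at RING1 and PCGF2 is thus what nearly every gene with such copies showed. How reads that fit more than 1 sequence were treated, and which alternate sequences the authors' reference held, are not given in the sources used here, and their part in this difference was not tested. Without RING1 and PCGF2, a start peak was found at 1 of 7 genes in each list, 14.3%.

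Among the genes without such copies, PCGF5 and CBX8 lay in the longest empty stretches. The PCGF5 interval was 1710 kb, longer than that of 88.7% of genes, and the CBX8 interval was 1030 kb, longer than 81.2%, where the median over 19779 genes was 258 kb. The CBX8 interval held 7 protein-coding starts and the PCGF5 interval 5. PCGF6 had 513 kb, longer than 65.1%, PCGF3 had 307 kb, longer than 54.4% and so near the middle, and RNF2 had 95.2 kb. Within 100 kb of the start, 5 of the 9 genes had no shLacZ peak and 3 had no shRRN3 peak, and the shares of all protein-coding genes with none were 68.2% and 35.2%.

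The promoters of the family were compared next, using the RefSeq promoter sequences of GRCh38.p14, which run from 250 bases before to 50 bases after a start. They matched 8 of the 9 genes, with 12 entries, and CBX8 had no entry. Most of the entries were rich in GC. Of the 12 entries, 8 had a GC content of 72.3% or more, which places them in the fifth of 21613 promoters that is richest in GC. The median of all promoters was 62.3%. The 8 came from BMI1, PCGF3, PCGF5, RING1 and RNF2, with repeated entries for BMI1 and PCGF5, so they are not 8 separate genes. The entries at the annotated starts of PCGF5 had 81.0% and 81.7%, RING1 74.3%, BMI1 and PCGF3 73.3% each, RNF2 73.0%, PCGF6 61.7% and PCGF1 59.7%. The PCGF2 entry, which lies inside the annotated gene, was the lowest among the genes with a single entry, at 54.7% with 2 CpG, where the median promoter had 21. The 2 entries with a start peak in one of the lists, BMI1 and PCGF1, had 36 and 14 CpG, so they did not lie together at either end of the family.

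The share of promoters with a start peak varied with GC content over all promoters. From 72.3% to 94.0% GC, the range that holds 8 of the 12 entries, it was 8.60% in shLacZ and 25.7% in shRRN3. From 65.7% to 72.0% it was 10.4% and 33.5%, and from 59.7% to 65.3% it was 11.0% and 32.1%. It was 8.35% and 26.5% from 50.7% to 59.3%, and 2.81% and 8.53% below that. The letters GGGCGG, the core of the GC box, were found on either strand in 9 of the 12 entries, beside 56.8% of all promoters. The letters TATAAA, as in the TATA box, were in 0 of 12 entries, beside 9.45% of all promoters. The CCAAT letters were in 2 of 12 entries, beside 34.9%. An E-box of the letters CACGTG, bound by MYC and MAX among others, was in 1 of 12, at BMI1 inside the shLacZ peak, beside 8.35%. Entries of one gene can overlap, as those of PCGF5 do, and a match does not show that a factor binds.

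The Polycomb genes beyond the 9 were counted in the same way, beside the 7.56% of all protein-coding genes with a start peak in shLacZ and the 23.7% in shRRN3. Of 23 other PRC1 subunits and partners, 0 had a start peak in shLacZ (exact interval 0% to 14.8%), and 3 had one in shRRN3, or 13.0% (2.78% to 33.6%), and both intervals hold the genome-wide share. Those were FBRS, E2F6 and DCAF7, which all belong to variant complexes, at percentiles 61.4, 2.59 and 40.6 of the shRRN3 list. PHC2, KDM2B, MGA and SCMH1 had shRRN3 peaks in the gene or within 2 kb and none at the start, and SCMH1 had the only shLacZ peak of this list, at percentile 39.2.

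PRC2, which methylates histone H3 at lysine K27 and supplies the mark read by CBX proteins, had start peaks at 2 of 12 genes in shLacZ (16.7%, interval 2.09% to 48.4%) and at 5 of 12 in shRRN3 (41.7%, 15.2% to 72.3%), again with the genome-wide shares inside the intervals. The shRRN3 genes were EZH2, the catalytic subunit, SUZ12, RBBP4, JARID2 and MTF2. SUZ12, a core subunit, had a start peak in each list, at -200 bp and percentile 26.1 in shLacZ and at 270 bp and percentile 81.1 in shRRN3, but these did not touch and were 73 bp apart. RBBP7, a histone-binding subunit, had one in shLacZ alone, at 103 bp and percentile 24.4. It was a low-ranking peak, unlike that of BMI1. EED, a core subunit named here after its values were seen, had overlapping peaks over exon 1 of its canonical transcript, at percentile 92.0 in shLacZ and 98.9 in shRRN3. Their midpoints lay 43828 bp and 43653 bp past the annotated gene bound, so they were not counted as start peaks.

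The H2AK119 deubiquitinases, which remove the mark that PRC1 places, had start peaks at 1 of 6 genes in shLacZ (16.7%, 0.421% to 64.1%) and at 4 of 6 in shRRN3 (66.7%, 22.3% to 95.7%). BAP1, the catalytic subunit of a tumour-suppressor complex, had overlapping peaks within 1 kb of its gene bound, at percentile 18.3 in shLacZ and 46.6 in shRRN3. Both peaks also lay at the start of PHF7, so they cannot be given to BAP1 alone. ASXL1, ASXL2 and USP16 had start peaks in shRRN3 alone. Over all 50 genes, start peaks were found at 4 in shLacZ, or 8.00%, and at 13 in shRRN3, or 26.0%, and the genome-wide 7.56% and 23.7% lay within their exact intervals of 2.22% to 19.2% and 14.6% to 40.3%.

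**Figure D5:**
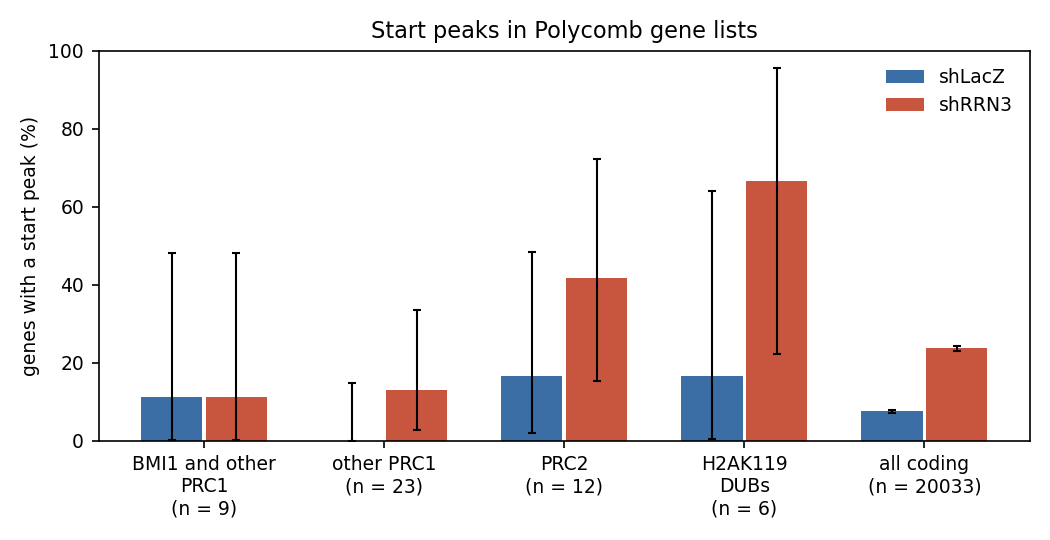
Percentage of genes with a start peak in each list, for the 9 genes, 3 further Polycomb lists and all protein-coding genes, with exact 95% intervals that cover counting error only. In shRRN3 the bars run from 11.1% for the 9 genes and 13.0% for other PRC1 subunits to 41.7% for PRC2 and 66.7% for the deubiquitinases (DUBs), and every interval of a Polycomb list is wide.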

How the data were processed

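Pol II ChIP-seq of SK-OV-3 cells was represented by 1 peak list for shLacZ and 1 for shRRN3. Per the labels the build was hg38. The lists were deposited with a score for each peak, which the authors' peak caller (MACS, from the peak names) gave per library. It probably is the −log10 of a p-value times 10. It grows with depth and served only for ranks and percentiles within a list. The aligner, MACS version, threshold, duplicate handling and use of the 2 inputs are not given in the sources used here.

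Genes came from GENCODE release 44, with the gene bounds as start and end, and distances are to the nearest base of the gene or of its start. An overlap of 1 bp between peaks was enough. Shares have exact Clopper-Pearson 95% intervals. No p-value was computed, since each hairpin had 1 library. Base composition and copies were read from the GRCh38 genome and promoters from RefSeq.

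The members and the Polycomb and marker lists were chosen with earlier results of these data known. All 9 genes, COMMD3, genes at their peaks, the 5 genes nearest to BMI1 in pattern and Polycomb genes with a shLacZ start peak were to be named, and other names were chosen after their values were seen. One gene of the lists is not reported here. The start-peak code was tested on simulated data, where 200 of 200 planted peaks were recovered over 20033 genes, and window overlaps were checked against bedtools 2.31.1. The software was Python 3.11.15 with pandas 2.3.3, numpy 2.4.6, matplotlib 3.10.9 and scipy 1.17.1. Window sizes, score limits, list length and overlap rules were varied.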

Additional observations from a re-analysis of the deposited data

How the results depend on the processing

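No paired analysis was possible because neither hairpin had a second library. Over 8 results, 29 values under alternatives were counted as free to move, of which 19 stayed within 1.5 times the reported value and 10 moved. The 19 include the overlap counts with all peaks set to 500 bp, which in these lists could not move either. With the gene span alone, shLacZ had 0 members with a peak and 0 member peaks, since the BMI1 peak lies before the gene. With 5 kb around the gene, member peaks rose to 3 in shLacZ and 5 in shRRN3, the added ones being those at the COMMD3 start. With a score of at least 66.05, the shLacZ median, 1 member with a peak and 1 member peak were left in shRRN3, at PCGF1. When shRRN3 was held to 4014 peaks by score, as many as shLacZ and with a lowest score of 102.24, it had 0 members with a peak, 0 with a start peak and 0 member peaks. With the start of any annotated transcript, 2 members had a start peak in shRRN3. Under the score, list-length and transcript-start settings the share of all protein-coding genes was not computed. These member counts are therefore not set against the genome. No member peak of one list overlapped one of the other with all peaks set to 500 bp. That setting could not have changed this, because every member peak lay at least 3735 bp from the other list. Another 17 values were fixed by how the alternative was built, such as leaving out RING1 and PCGF2, which have no peaks, an alternative chosen after seeing the data. Unknown depth limits the comparison of the lists, and a missing peak is not an absence of Pol II.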
